A study of Mus musculus with 20 samples.

Results

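Cytosolic ribosomal proteins are the protein part of the ribosome that translates nuclear-encoded mRNAs. The small (40S) subunit reads the mRNA, and the large (60S) subunit joins amino acids and holds the tunnel through which the new chain leaves. Nearly all of these proteins are present once in each ribosome, and their mRNAs are among the abundant ones in most tissues, the liver included. Their mRNAs carry a 5' terminal oligopyrimidine (TOP) motif, a C followed by a run of C and T at the transcription start, through which mTORC1 signalling and the binding protein LARP1 set their translation and stability.

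The genes described here were chosen by symbol and level. A member has a name of the form Rpl or Rps with a number, or Rplp0 to Rplp2, with an optional a, l1 or x at the end, and at least 200 counts summed over the series. Of 55421 genes, 78 had such a name and 77 were members, 29 of the 40S and 48 of the 60S subunit. The member closest to the limit was Rpl22l1 with 11638 counts in total, and the name left out, Rps12l1, had 0 counts. All 77 passed the filter of 10 counts for the test across 22867 genes. Selection on total level did not use the contrasts below, but the family was picked with earlier results of these data known, so its counts and medians are given as a description without a test over the family.

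RNA was measured in 20 livers of wildtype mice labelled female, 5 in each of 4 groups. The study's text names male mice for this time course, and a figure legend names female mice. All mice received, at 6 months of age, AAV8 that expresses Staphylococcus aureus Cas9 from Tbg, a promoter active in hepatocytes, with a guide RNA from the U6 promoter, so the controls carry virus, Cas9 and a cut site too. The guide was against Hira, which encodes a chaperone for histone H3.3 (HIRA KO), or against Rosa26, a neutral locus (Rosa26 control), and livers were taken 3 weeks or 6 months after injection. Whole liver was sequenced, in which only hepatocytes express Cas9. Nothing in the labels says how many alleles were edited.

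Total counts ranged from 19916430 to 24079736 per library. Hira itself had 128, 171, 158, 134 and 136 counts in the Rosa26 controls of 3 weeks and 126, 127, 90, 104 and 87 counts in HIRA KO. At 6 months it had 132, 157, 141, 131 and 105 counts in the controls and 136, 109, 136, 112 and 128 counts in HIRA KO. The log2 fold changes were -0.48 ± 0.14 (SE, edgeR adjusted p 0.197) and -0.10 ± 0.14 (edgeR adjusted p 0.794), so the Hira transcript did not separate the 6-month groups. Transcript counts do not measure HIRA protein, which the study assayed separately, and the labels are used as given. The library labelled HIRA KO 6 months replicate 5 went against its label of female, with 9 counts of Xist, against at least 6286 in the others, and 2041 counts of Y-linked genes, against at most 13 in the others. Family-wide results at 6 months, and the members whose values hang on it, are also given without it. Hepatocyte markers summed to 81250 to 160200 CPM (counts scaled to a common library size with TMM factors) in every library, whereas markers of cholangiocytes summed to 46.8 to 153.1 CPM.

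The start sites of a few members show the element by which the family is known. RefSeq promoters (build GRCm38.p6) were at hand for 57 of the 77 members, with 67 start sites, and each window below holds the 15 bases before the annotated start and the 15 bases from it on. The 5 members of the family with the most negative log2 fold change at 6 months are printed first, followed by Rps6 and Rpl35, which carry the motif at the annotated start and had log2 fold changes near 0 there. Capitals mark the longest uninterrupted run of C and T in the window.
Rpl22l1 (chr3:28805493-28805522, + strand): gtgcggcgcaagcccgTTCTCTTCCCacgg
Rpl39 (chrX:37085208-37085237, - strand): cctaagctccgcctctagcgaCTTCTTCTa
Rps21 (chr2:180257364-180257393, + strand): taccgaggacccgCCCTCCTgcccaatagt
Rpl36a (chrX:134585639-134585668, + strand): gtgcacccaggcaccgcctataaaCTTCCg
Rplp2 (chr7:141447636-141447665, + strand): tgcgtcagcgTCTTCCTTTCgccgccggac
Rps6 (chr4:86857353-86857382, - strand): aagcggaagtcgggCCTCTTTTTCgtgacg
Rpl35 (chr2:39005117-39005146, - strand): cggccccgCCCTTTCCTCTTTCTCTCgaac

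Counting from 1 at the annotated start, that start is a C followed by at least 4 C or T in Rplp2, Rps6, Rpl35 and the first of the 2 starts of Rps21. In Rpl22l1, Rpl39 and Rpl36a the run begins at base 2, 7 and 10 instead. A C with at least 4 following C or T stood exactly at the annotated start of 13 of 67 member promoters (19.4%) and of 2.51% of all 32851 promoters. A run of at least 8 C or T within 15 bases of the start was present in 40.3% of member promoters and in 12% of all promoters. Over the 300 bases of each promoter, and on either strand, CCGGAAG (a core bound by ETS factors such as GABPA) was found in 34.3% of member promoters and 8.86% of all. The GC box GGGCGG was found in 61.2% and 35.7%, AAGATGG (a core of YY1 sites) in 17.9% and 6.34%, and CACGTG (an E-box) in 11.9% and 7.15%. TATAAA was found in 10.4% and 13.6%, and CCAAT in 29.9% and 37.4%. These are matches of letters, and an annotated start that is a few bases off hides a TOP motif in this count.

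The members spanned a wide range of levels. Mean CPM over the 20 libraries ranged from 26.8 for Rpl22l1 to 540.5 for Rpl4, with a median of 152.5. Per kilobase of annotated exon the level ran from 13.5 to 659.8 CPM, a 48.9-fold range, with a median of 79.4. Rplp1, an acidic protein of the stalk that recruits the translation GTPases, had the highest level per kilobase (659.8), followed by Rps15, a protein near the decoding site (325.9), and Rpl36 (290.9). The lowest were Rpl22l1, a paralog of Rpl22 that varies between tissues (13.5), Rps15a (15.3) and Rps10 (15.7). Exon length is the union of all annotated transcripts (GENCODE M21), so that a member with long minor transcripts, such as Rps15a with 6270 exon bases, is set lower per kilobase than its main mRNA would be.

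**Figure D1:**
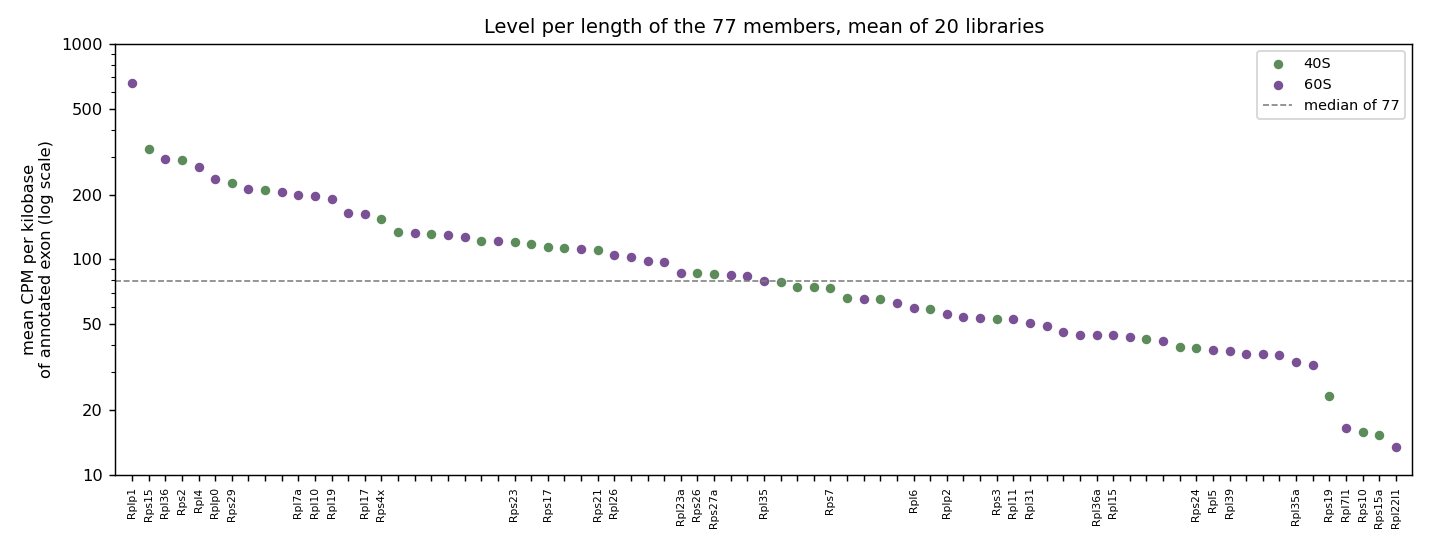
Mean CPM per kilobase of annotated exon over the 20 libraries (log scale) for each of the 77 members, in falling order, coloured by subunit, with names beside a subset chosen by rank and role and the median as a dashed line. Rplp1 stands alone at the top with 659.8, and Rpl22l1 is lowest with 13.5.

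Sequence relatives limit some of these values. Named pseudogenes (295 in all) belong to 61 members and held a median of 0.274% as many counts as the member, with a maximum of 7.64% for Rpl38. The spans of 28 members overlap 53 annotated snoRNA genes on the same strand, small RNAs that a poly(A) library is not made to capture. For 7 members an overlapping gene on the opposite strand held more than 10% as many counts. These were Tlcd1 at Rpl23a (91.6%), Sphk2 at Rpl18 (53.6%), Arpc5l at Rpl35 (30.6%), Tbc1d8 at Rpl31 (22.5%), Nkiras1 at Rpl15 (17.1%), Vps52 at Rps18 (16%), and Ccdc84 and Trappc4 at Rps25 (14.7% and 13.4%). Whether the counting used strand is not given in the sources used here, and the values of those 7 members are uncertain to that extent.

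As a family, the members took 1.11 to 1.56% of all counts in a library. In the Rosa26 controls of 3 weeks the share was 1.56, 1.48, 1.35, 1.38 and 1.27% in replicates 1 to 5. In HIRA KO of 3 weeks it was 1.46, 1.39, 1.27, 1.34 and 1.18%. The 2 groups overlapped. At 6 months the share was 1.26, 1.36, 1.36, 1.41 and 1.33% in the controls and 1.37, 1.11, 1.41, 1.13 and 1.12% in HIRA KO. Replicates 1 and 3 of HIRA KO were level with or above most controls, and replicates 2, 4 and 5 were below all 5. The means were 1.41 ± 0.113% and 1.33 ± 0.109% (SD, n = 5) at 3 weeks and 1.34 ± 0.054% and 1.23 ± 0.149% at 6 months. The differences were smaller than the spread within HIRA KO at both times. In these bulk livers a smaller share of cells that make much of these mRNAs and less of them per cell cannot be told apart.

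Members varied together from library to library. After each member was centred on its group means, its level had a Pearson r of 0.408 (Rpl3) to 0.941 (Rps20) with the median of the other members over the 20 libraries, and 71 of 77 had an r above 0.5. The points share library and depth, and no p-value is given. With each member centred on its own mean, the family level (the median over the members) was highest in replicates 1 (0.31) and 2 (0.20) of the 3-week controls, in which all 77 members were above their own means. It was lowest in replicates 4 (-0.30) and 2 (-0.21) of 6-month HIRA KO, in which 1 and 6 members were above their means. Rpl22l1, Rps29 and Rps21 had the largest spread within groups (SD 0.32, 0.28 and 0.27 log2 units, against a median of 0.15).

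At 3 weeks nearly every member was slightly lower by sign in HIRA KO, and none passed the test. The comparison asks for an early response to the guide. By sign, 76 of 77 members were lower, with a median log2 fold change of -0.12 (a 7.9% lower level), against -0.01 over all genes tested. Of all genes 50.9% were lower by sign. Of the 1073 shortest other genes at least as abundant as the lowest member, 66.2% were lower. Without replicate 1 of the 3-week controls, the library with the highest family level, the median was -0.07 and 68 were lower. The edgeR quasi-likelihood test called 0 members at an adjusted p under 0.05, beside 0.197% of all genes. At an unadjusted p under 0.05, 2 members were lower (2.6%) and 0 higher, beside 4.5% of all genes that were lower, and DESeq2 and limma-voom also called 0. In 0 members did all 5 HIRA KO libraries lie below all 5 controls, beside 1.24% of all genes. The count at an unadjusted p under 0.05 hung on single libraries. It was 21 without replicate 1 of 3-week HIRA KO, 8 without replicate 5 of the 3-week controls, 4 without replicate 4 of those controls or replicate 1 of 6-month HIRA KO, 1 without replicate 1 of the controls or replicate 4 or 5 of 3-week HIRA KO, and 0 without replicate 2 of the controls.

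The smallest p at 3 weeks belonged to Rpl7l1, a paralog of the 60S protein Rpl7. It measured 63.5, 69.4, 60.5, 59.6 and 66.2 CPM in the controls and 55.8, 51.9, 55.8, 60.03 and 54.5 CPM in HIRA KO, and only replicate 4 of HIRA KO reached into the range of the controls. The log2 fold change was -0.20 ± 0.08 (SE, edgeR adjusted p 0.427). Rpl10, an X-linked protein that reaches the peptidyl transferase centre, had -0.22 ± 0.09 (edgeR adjusted p 0.472), with 420.1 to 502.0 CPM in the controls and 345.8 to 450.7 CPM in HIRA KO. Rps2, at the mRNA entry of the 40S subunit, was the single member with a positive sign, at 0.03 ± 0.09 (edgeR adjusted p 0.973).

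At 6 months most members were again lower by sign, with a wider range of values. This comparison asks what differs long after injection. Of the members, 70 were lower and 7 higher by sign, with a median log2 fold change of -0.19 (12.3% lower), against 0.03 over all genes. Of all genes 45.7% were lower by sign. Of the 1073 shortest other genes at least as abundant as the lowest member, 63.1% were lower. With FPKM values 60 members were lower and the median was -0.11, against -0.12 at 3 weeks with the same values. Again edgeR called 0 members, beside 1.31% of all genes. Fitted on the 10 libraries of 6 months alone, edgeR called 0 of 20832 genes (smallest adjusted p 0.0634), with 1298 lower and 1331 higher at an unadjusted p under 0.05, among them 32 members, each lower. At an unadjusted p under 0.05, 32 members (41.6%) were lower and 0 higher, beside 6.85% of all genes lower. Among other genes at least as abundant as the lowest member, 580 of 4373 (13.3%) were lower at that p, and among the shortest 1073 of these, 206 (19.2%). DESeq2, the tool of the study, called 13 members lower (16.9%) at an adjusted p under 0.05, beside 2.1% of all genes called lower by DESeq2, while limma-voom called 0. Without the library with Y-linked counts DESeq2 called 9, and the share of all genes called in that fit is not given here. No member passed an absolute log2 fold change of 1 with any of these tools. In 6 members (7.79%) all 5 HIRA KO libraries were below all 5 controls, beside 1.74% of all genes. They were Rpl39, Rps27a, Rpl9, Rpl30, Rpl34 and Rpl27a, of which the last 4 were chosen after their values were seen.

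**Figure D2:**
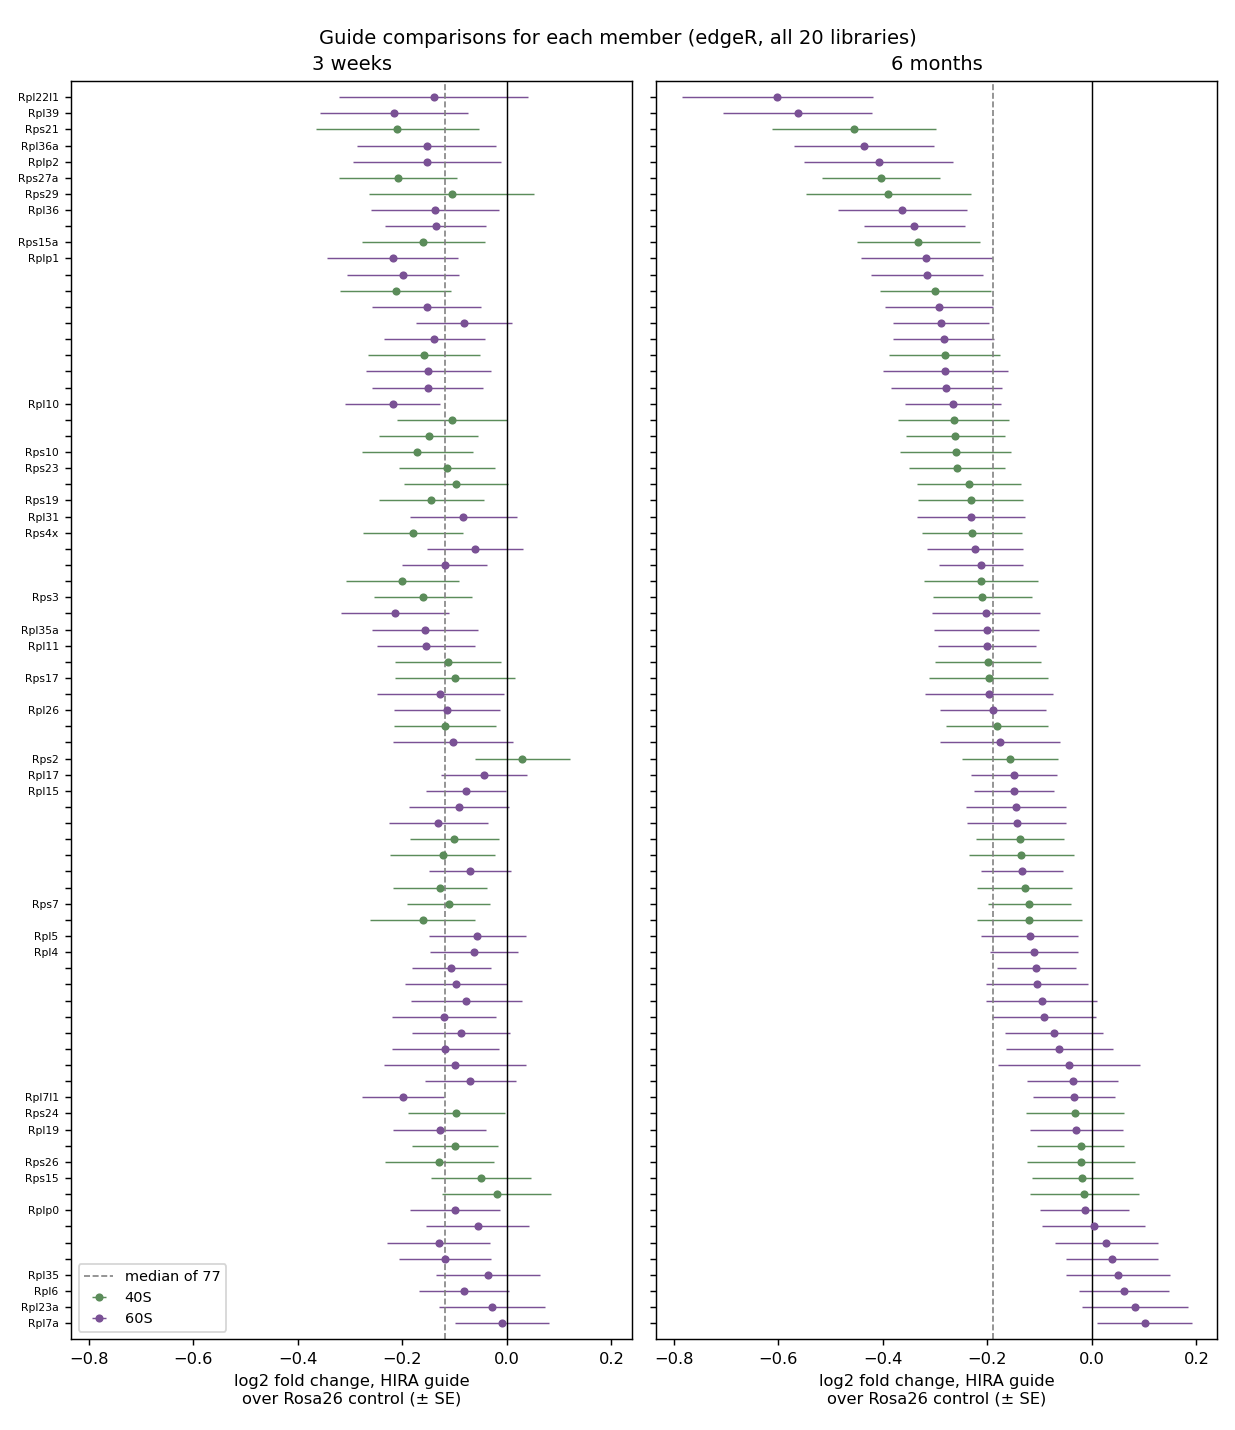
Log2 fold change (± SE, edgeR) of each of the 77 members in HIRA KO over Rosa26 control at 3 weeks (left) and 6 months (right), in order of the value at 6 months and coloured by subunit, with names beside a subset chosen by rank and role and the median as a dashed line. The 3-week values lie close together around -0.12, whereas the 6-month values run from -0.60 (Rpl22l1) to 0.10 (Rpl7a).

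Rpl39 encodes a very small protein in the wall of the exit tunnel (ENSMUSG00000079641.3, chromosome X, 37082520 to 37085402, GRCm38). At 6 months it measured 59.7, 60.1, 53.5, 66.6 and 61.6 CPM in the controls and 49.9, 38.9, 45.0, 28.7 and 41.6 CPM in HIRA KO. The groups did not overlap, and replicate 4 of HIRA KO was lowest. This was a difference of -0.56 ± 0.14 (SE) in log2 units, which just missed the threshold by edgeR (adjusted p 0.0536) and passed it by DESeq2 (0.006). At 3 weeks it measured 67.9, 67.2, 62.6, 53.8 and 54.9 CPM in the controls and 66.6, 57.8, 51.2, 53.1 and 34.9 CPM in HIRA KO, where the groups overlapped (-0.22 ± 0.14, edgeR adjusted p 0.741).

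Rps27a encodes ubiquitin fused to the 40S protein eS31, so that each copy made also adds a ubiquitin (ENSMUSG00000020460.15, chromosome 11, 29545846 to 29548109). At 6 months it measured 162.7, 183.4, 164.7, 190.5 and 187.1 CPM in the controls and 160.8, 121.6, 150.0, 126.5 and 112.4 CPM in HIRA KO. All HIRA KO libraries were lower, but replicate 1 lay just under the lowest control. The log2 fold change was -0.40 ± 0.11 (SE, edgeR adjusted p 0.0799; 0.0101 with DESeq2). Rpl9 (ENSMUSG00000047215.14, chromosome 5, 65388364 to 65391444), a 60S protein at the base of the stalk, measured 151.9, 164.1, 149.7, 165.2 and 167.5 CPM in the controls and 143.8, 114.0, 145.2, 125.2 and 102.6 CPM in HIRA KO. Its log2 fold change was -0.34 ± 0.10 (edgeR adjusted p 0.0833; 0.00865 with DESeq2).

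Rpl22l1 had the most negative log2 fold change of the family with all libraries (ENSMUSG00000039221.10, chromosome 3, 28805436 to 28807424). At 6 months it measured 19.2, 32.8, 24.6, 28.4 and 28.1 CPM in the controls and 17.3, 15.8, 25.7, 18.4 and 10.3 CPM in HIRA KO. The groups overlapped through replicate 3 of HIRA KO, which lay above replicates 1 and 3 of the controls. The log2 fold change was -0.60 ± 0.18 (SE, edgeR adjusted p 0.104; 0.0275 with DESeq2). Its lowest value came from the library with Y-linked counts, and without that library it had -0.46 (edgeR adjusted p 0.142), less than Rpl39. Its paralog Rpl22, looked up after the values were seen, had -0.21 (edgeR adjusted p 0.2). Rpl36a, an X-linked 60S protein at the exit site for tRNA, measured 76.4, 80.0, 77.2, 85.4 and 83.8 CPM in the controls and 80.5, 56.0, 60.4, 44.8 and 56.0 CPM in HIRA KO, where replicate 1 alone was among the controls (-0.44 ± 0.13, edgeR adjusted p 0.108; 0.0282 with DESeq2).

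**Figure D3:**
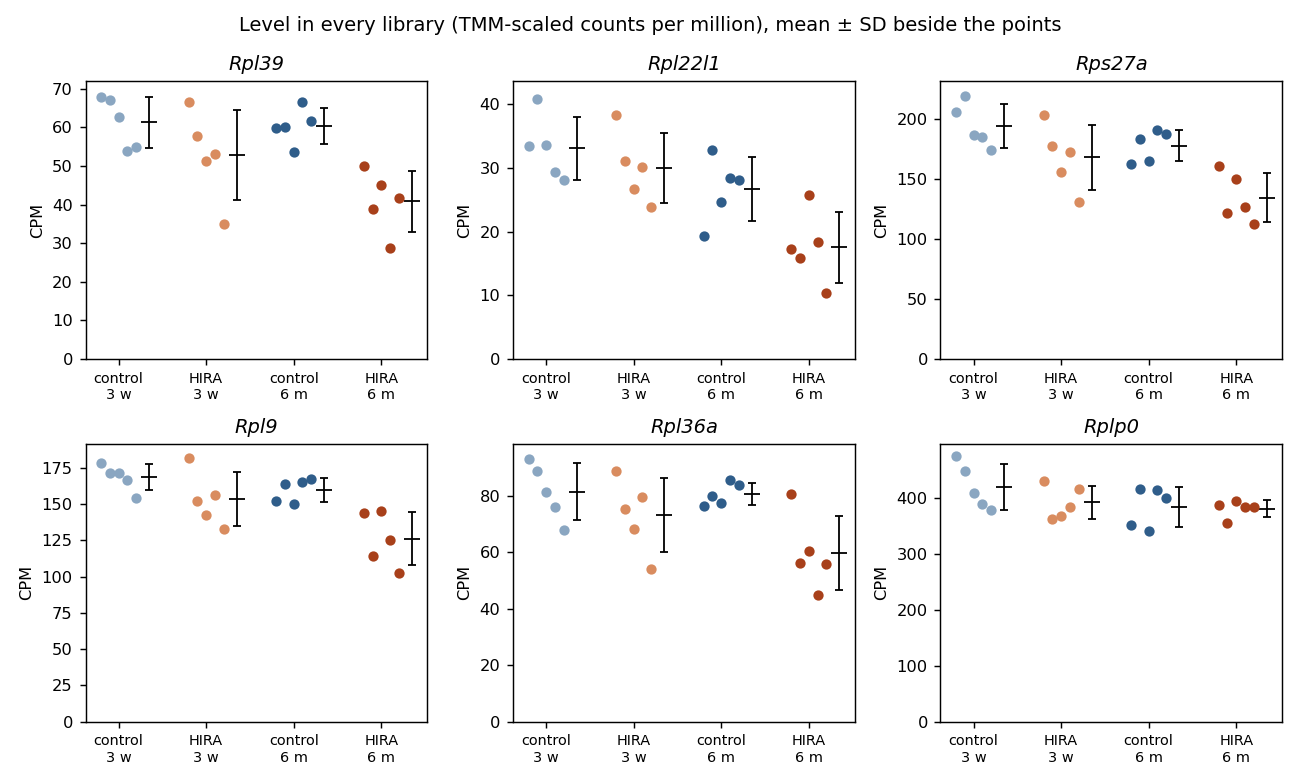
CPM (scaled by TMM) in every library for 6 members, by group, with the mean ± SD (n = 5) beside the points and axes that start at 0. Rpl39, Rps27a and Rpl9 have every 6-month HIRA KO point below the 6-month controls, Rpl22l1 and Rpl36a overlap, and Rplp0 shows about the same level in both 6-month groups.

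Rps21 and Rps29, small 40S proteins, had the wide spread named above. Rps21 measured 88.9 to 99.8 CPM in the 6-month controls, whereas HIRA KO held 87.6, 55.0, 89.0, 60.7 and 54.8 CPM, so that replicates 1 and 3 were at the lower edge of the controls and the other 3 far below (-0.46 ± 0.16, edgeR adjusted p 0.153). Rps29 measured 164.6 to 186.1 CPM in the controls and 172.7, 130.1, 130.6, 99.5 and 138.3 CPM in HIRA KO (-0.39 ± 0.16, edgeR adjusted p 0.23), with replicate 1 again among the controls.

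Among functional groups, the 3 proteins of the stalk gave unlike values. The stalk is built on Rplp0, which anchors dimers of Rplp1 and Rplp2. At 6 months the log2 fold changes were -0.41 ± 0.14 for Rplp2 (edgeR adjusted p 0.159), -0.32 ± 0.13 for Rplp1 (0.22) and -0.01 ± 0.09 for Rplp0 (0.962). Rplp0 measured 351.7, 415.2, 340.0, 413.4 and 398.4 CPM in the controls and 386.8, 354.4, 393.1, 383.3 and 383.0 CPM in HIRA KO, so that HIRA KO lay within the range of the controls. The difference between these members was not itself tested. Rpl5 and Rpl11, which carry the 5S rRNA into the large subunit and bind Mdm2 when they are free of it, had -0.12 ± 0.09 (edgeR adjusted p 0.593) and -0.20 ± 0.09 (0.306).

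The 8 members at the exit tunnel and its rim ranged from -0.56 (Rpl39) to 0.08 (Rpl23a) at 6 months, with a median of -0.13, and 6 of them were lower by sign. Without the library with Y-linked counts 8 of 8 were lower, with a median of -0.15. The tunnel wall itself includes Rpl4 (-0.11) and Rpl17 (-0.15) beside Rpl39. Of the 4 at the mRNA entry and the decoding site, Rps23 had -0.26 and Rps3 -0.21, with Rps2 at -0.16 and Rps15 at -0.02. The 12 members taken as genes of Diamond-Blackfan anemia, an inherited failure of red cell production, are not a full list of such genes. By sign 12 of these 12 were lower at 6 months, from -0.39 (Rps29) to -0.02 (Rps26), beside 70 of all 77 members, and edgeR called 0. The 4 X-linked members were Rpl39, Rpl36a, Rpl10 (-0.27) and Rps4x (-0.23). By edgeR all 4 were lower at an unadjusted p under 0.05, beside 6.85% of all genes, or 3 of 4 without the library with Y-linked counts. Of these 4 edgeR called 0, and DESeq2 called Rpl39, Rpl36a and Rpl10 (adjusted p 0.0245). By subunit, 29 of 29 members of the 40S and 41 of 48 of the 60S subunit were lower, with medians of -0.21 and -0.15.

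The members with a positive sign at 6 months were all of the 60S subunit. Rpl7a was the highest, with 330.2, 348.9, 289.0, 382.2 and 337.9 CPM in the controls and 366.7, 382.6, 330.1, 315.6 and 415.7 CPM in HIRA KO (log2 fold change 0.10 ± 0.09, edgeR adjusted p 0.653). Rpl23a (0.08), Rpl6 (0.06), Rpl35 (0.05), Rpl18 (0.04) and Rpl29 (0.00) were also above 0, of which Rpl18 and Rpl29 are named after their values were seen, and replicate 5 was the highest HIRA KO library in Rpl7a, Rpl6, Rpl23a, Rpl35 and Rpl29. Without that library, the one with Y-linked counts, Rpl23a had -0.01, Rpl35 -0.03 and Rpl29 -0.08, so that their signs turned, and Rpl7a had 0.05, Rpl6 0.03 and Rpl18 0.02. Members with the motif at an annotated start had a median of -0.20 (13 genes, from -0.46 for Rps21 to 0.05 for Rpl35), and those without it a median of -0.18 (44 genes).

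**Figure D4:**
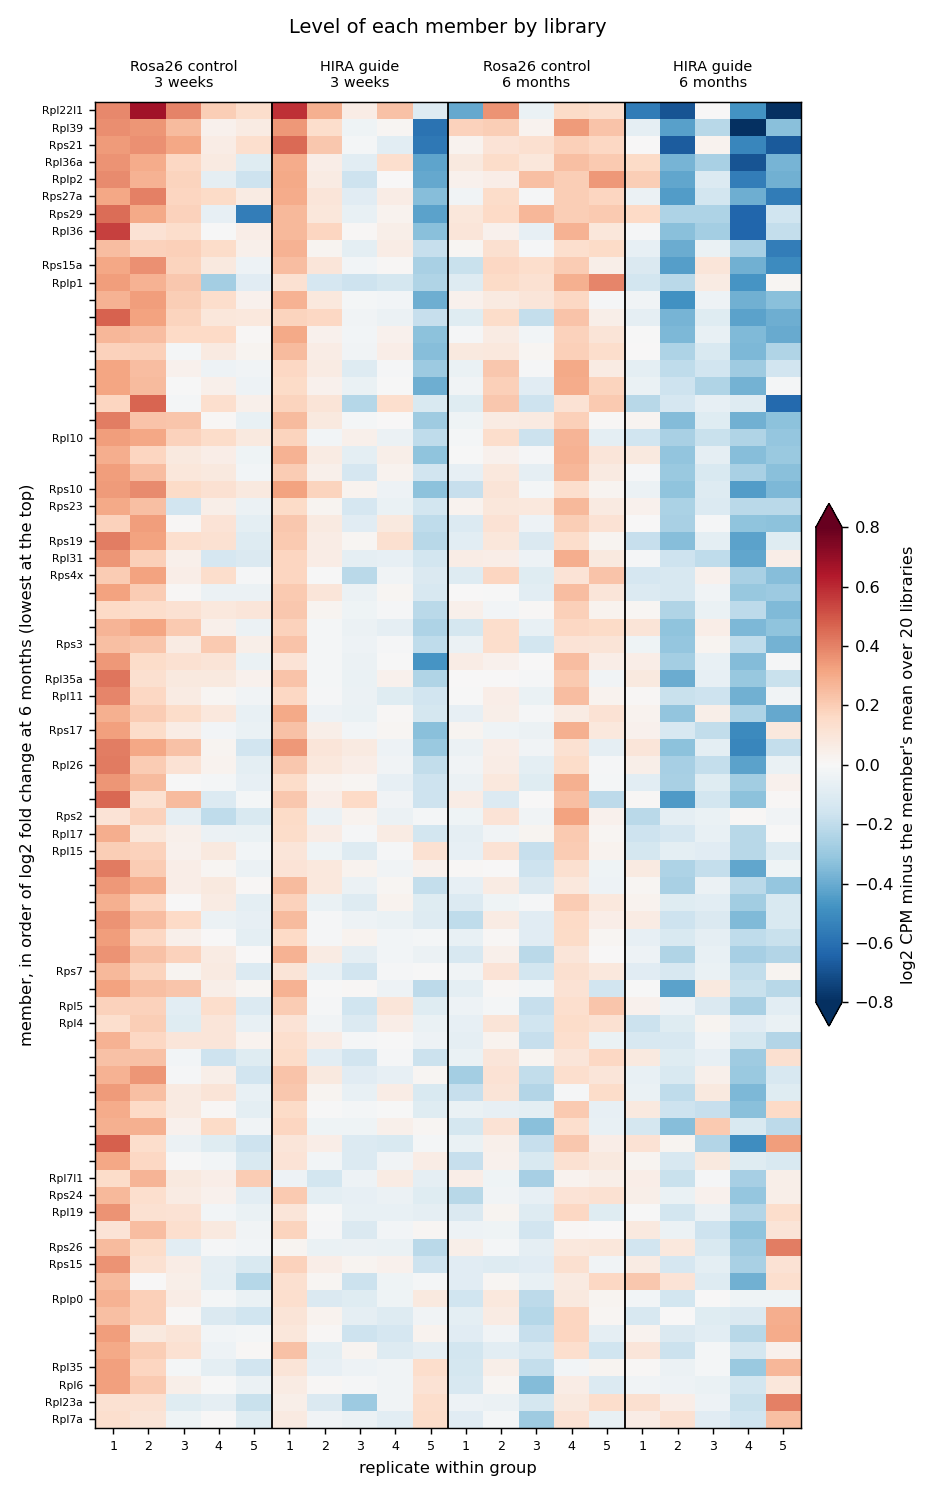
Log2 CPM of each member (rows, in order of log2 fold change at 6 months, with names beside a subset chosen by rank and role) in each library (columns, by group and replicate), minus the member's mean over the 20 libraries; the colour scale ends at ±0.8. Columns rather than single genes stand out, with replicates 1 and 2 of the 3-week controls above and replicates 2 and 4 of 6-month HIRA KO below the mean for most members, and replicate 5 of 6-month HIRA KO mixed.

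The result at 6 months rests on the libraries to a different degree. Without the library labelled HIRA KO 6 months replicate 5 the median was -0.18, 74 members were lower by sign and 28 were lower at an unadjusted p under 0.05. Rpl39 then had -0.57 (edgeR adjusted p 0.0613), Rps27a -0.35 (0.12), Rpl9 -0.27 (0.126), Rpl36a -0.41 (0.137) and Rps21 -0.38 (0.214). With DESeq2 the adjusted p without it was 0.009 for Rpl39, 0.0302 for Rps27a, 0.0237 for Rpl9, 0.0494 for Rpl36a and 0.0577 for Rpl22l1. Without replicate 4 of HIRA KO, the library with the lowest family level, the median was -0.14 and 21 members were lower at an unadjusted p under 0.05. Without replicate 4 of the 6-month controls, the highest of its group, these values were -0.14 and 22.

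Across time most members were lower by sign at 6 months in both arms, and none passed the edgeR test. In the Rosa26 controls 67 members were lower than at 3 weeks, with a median log2 fold change of -0.10 (6.4% lower), against 0.00 over all genes. Of all genes 49.5% were lower by sign. Without replicate 1 of the 3-week controls 52 were lower, with a median of -0.05. No member was called by edgeR, beside 0.324% of all genes, and 5 (6.49%) were lower at an unadjusted p under 0.05, beside 6.38% of all genes, with 0 higher, and DESeq2 and limma-voom called 0. The 5 became 13 without replicate 5 of the 3-week controls, 9 without replicate 4 of the 6-month controls, 3, 1 and 0 without replicates 3, 1 and 2 of the 3-week controls, and 2 and 0 without replicates 1 and 3 of the 6-month controls. In 1 member (1.3%), Rpl7l1, the groups did not overlap, beside 1.81% of all genes. Rpl6, a 60S protein, had the smallest p among those lower, at -0.21 ± 0.09 (edgeR adjusted p 0.296). It measured 233.7, 214.5, 191.6, 185.7 and 180.0 CPM at 3 weeks and 170.3, 187.6, 146.2, 193.5 and 172.1 CPM at 6 months, so the groups overlapped. Rps2 had the smallest p among those higher, at 0.10 ± 0.09 (edgeR adjusted p 0.717).

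In HIRA KO 70 members were lower at 6 months than at 3 weeks, with a median of -0.15 (9.7% lower), against 0.03 over all genes. Of all genes 44.6% were lower by sign. Without replicate 1 of 3-week HIRA KO 65 were lower, with a median of -0.10. Once more edgeR called 0, beside 0.0656% of all genes, and DESeq2 called 1, Rpl22l1. At an unadjusted p under 0.05, 21 members (27.3%) were lower and 0 higher, beside 3.36% of all genes lower. Rpl22l1 had -0.77 ± 0.18 (edgeR adjusted p 0.12; 0.0111 with DESeq2), from 38.3, 31.1, 26.7, 30.1 and 23.8 CPM at 3 weeks to 17.3, 15.8, 25.7, 18.4 and 10.3 CPM at 6 months, with replicate 3 of the later group above replicate 5 of the earlier. Without the library with Y-linked counts it had -0.64 (edgeR adjusted p 0.134; 0.0226 with DESeq2). In 1 member (1.3%), Rpl21, the groups did not overlap, beside 0.691% of all genes, and Rpl21 was chosen after its values were seen. Rpl23a had the smallest p among those higher (0.13 ± 0.10, edgeR adjusted p 0.779), or 0.04 without that library. This comparison shares the HIRA KO libraries of 6 months with the guide comparison of that time, and without replicate 1 of 3-week HIRA KO its count of members lower at an unadjusted p under 0.05 was 4. It was 11 without replicate 2 of that group, 33 without its replicate 5, and 6, 10, 12 and 32 without replicates 4, 2, 5 and 1 of 6-month HIRA KO.

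A difference of the guide effect between the times was not detected. The interaction had a median of -0.06 over the members, against 0.03 over all genes. Below 0 were 54 members (70.1%), beside 45.6% of all genes. Without replicate 1 of 3-week HIRA KO 40 members were below 0, with a median of -0.01. Without replicate 1 of the 3-week controls these values were 62 and -0.12, and with FPKM values 38 and 0. By edgeR 0 members and 0% of all genes were called, as by DESeq2 and limma-voom, with 840 genes higher and 674 lower at an unadjusted p under 0.05. Of the members 0 were lower at an unadjusted p under 0.05, beside 2.95% of all genes. The number was 4 without replicate 1 of 6-month HIRA KO, 3 without replicate 5 of 3-week HIRA KO, and 1 without replicate 2 of the 3-week controls, replicate 1 of the 6-month controls or replicate 3 of 6-month HIRA KO. Rpl22l1 had the most negative value (-0.46 ± 0.26, edgeR adjusted p 0.794) and Rpl7l1 the highest (0.16 ± 0.11, 0.836). The larger median at 6 months is therefore not shown to differ from that at 3 weeks for any member. In the guide comparisons 69 members were lower by sign at both times. With 76 and 70 of 77 lower at the single times, no smaller number was possible, so this count shows no agreement between the times.

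Short genes had medians below 0 in the guide comparisons and near 0 over time. The members are short, with a median of 1830 exon bases, and 60 of 77 were no longer than 2771 bases, the length reached by the shortest 1073 of the 4285 other genes that are at least as abundant as the lowest member and have a length. Those 1073 had a median log2 fold change of -0.06 at both 3 weeks and 6 months in the guide comparisons, and the longest 1073 had 0.02 at both. The 4373 genes at least as abundant as the lowest member had a median of -0.02 in both guide comparisons. Over time the short genes had a median of 0.003 in the controls and -0.005 in HIRA KO. The part of length in the result was not tested. Alb, the gene of the main plasma protein, stood 0.35 ± 0.17 log2 units higher at 6 months by sign (edgeR adjusted p 0.321). Of the 6 hepatocyte markers tested, 5 were higher by sign at 6 months and 1, Fgb, was lower (-0.35), with 0 called by edgeR. At 3 weeks 4 of the 6 were lower by sign, 3 of them at an unadjusted p under 0.05, beside 4.5% of all genes, while Alb had 0.28. Scaling by library totals alone gave a member median of -0.16 at 6 months.

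Markers of other cells were checked from lists. At 6 months the 5 stellate cell markers summed to 158.0 to 284.2 CPM in the controls and 182.5 to 640.6 CPM in HIRA KO, with 5 of 5 higher by sign and 0 called (Dcn 0.51 ± 0.21, edgeR adjusted p 0.251). Without HIRA KO replicate 3 the highest sum was 318.1 CPM, 3 of 5 were higher by sign and Dcn had 0.25 (edgeR adjusted p 0.618). The 5 Kupffer cell markers summed to 197.5 to 1425 CPM in the controls and 120.0 to 845.5 CPM in HIRA KO, with 5 of 5 lower by sign (Clec4f -0.39, edgeR adjusted p 0.764), and the highest sum was that of control replicate 3. Without it the control sums were 197.5 to 341.6 CPM, 5 of 5 markers were higher by sign and Clec4f had 0.60 (edgeR adjusted p 0.392), and without HIRA KO replicate 5 the signs were 3 lower and 2 higher. The 4 endothelial markers summed to 94.3 to 150.4 and 110.4 to 175.1 CPM, the 5 markers of T and NK cells to 2.83 to 20.6 and 3.3 to 23.2 CPM, and the 4 B cell markers to 8.06 to 22.6 and 7.01 to 25.2 CPM. By sign 4 of 4 endothelial, 5 of 5 T and NK cell and 4 of 4 B cell markers were higher in HIRA KO, with medians of 0.30, 0.48 and 0.45 and 0 called by edgeR. At an unadjusted p under 0.05, 2 endothelial markers (Stab2 0.32 and Kdr 0.34), 0 T and NK cell markers and 1 B cell marker were higher, beside 8.68% of all genes. These numbers were 3, 2 and 3 without the library with Y-linked counts, and without HIRA KO replicate 3 they were 3, 0 and 0, with 3 of 5 T and NK cell markers higher by sign. Neutrophil markers stayed at 1.52 to 5.91 CPM in HIRA KO, against 2.2 to 20.5 CPM in the controls, or at most 4.29 CPM without control replicate 3. At 3 weeks the 4 neutrophil markers were lower (S100a8 -1.88, edgeR adjusted p 0.355) and the 4 B cell markers higher (Cd79a 0.85, edgeR adjusted p 0.38) by sign in HIRA KO, with 0 called. The neutrophil sum of 42.5 CPM in replicate 3 of the 3-week controls stood above the 7.29 CPM or less of the other 4, and without that library S100a8 had -0.55 (edgeR adjusted p 0.87). The 5 erythroid markers summed to 78.4 to 284.7 CPM in controls and 98.7 to 203.6 CPM in HIRA KO at 6 months, and the 5 proliferation markers to 5.59 to 20.7 and 3.61 to 23.1 CPM. The part of these cells in the family's level was not tested.

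Other genes of the pathway were taken from lists. Of 10 tested cytosolic ribosomal protein genes whose symbols do not have the form above, 8 were lower at 3 weeks and 7 at 6 months by sign, with medians of -0.11 and -0.14 and 0 called. Rpsa, a 40S protein that is also a laminin receptor, had -0.21 ± 0.10 at 6 months (edgeR adjusted p 0.321), Fau had -0.18 (0.383) and Rps27l, a p53 target, had -0.16 (0.526). Of 17 translation factors and other TOP mRNAs, 14 and 10 were lower by sign, with medians of -0.07 and -0.01 and 0 called. Eef1b2, which recharges the elongation factor eEF1A with GTP, had -0.19 ± 0.09 at 6 months (edgeR adjusted p 0.299), and Pabpc1, the poly(A) binding protein, had 0.18 ± 0.09 (0.351).

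Of 15 genes for mTORC1 and the regulators of TOP mRNAs, edgeR called 1 at 6 months and 0 at 3 weeks. Mlst8, a subunit of mTORC1 and mTORC2, rose by 0.45 ± 0.10 log2 units in HIRA KO of 6 months (edgeR adjusted p 0.03). The call held in 15 of 20 fits without single libraries and was lost without replicate 2, 3, 4 or 5 of the 6-month controls or replicate 1 of HIRA KO (edgeR adjusted p up to 0.0957). It was also lost with the 6-month libraries alone (edgeR adjusted p 0.146). It was lower by sign over time in the controls (-0.32, edgeR adjusted p 0.161), which share libraries with that comparison. Tsc1, an inhibitor of mTORC1, had -0.27 ± 0.09 (edgeR adjusted p 0.16), and Larp1, which binds TOP mRNAs, had 0.02 (0.933). Of 8 transcription factors tied to these promoters, 8 were higher by sign at 6 months with a median of 0.16 and 0 called, among them Tbp (0.21, edgeR adjusted p 0.213) and Max (0.22, 0.262).

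Of 18 genes for ribosome assembly and rRNA synthesis, 12 were lower by sign at 3 weeks, with a median of -0.06, and 2 were lower at an unadjusted p under 0.05, beside 4.5% of all genes, with 0 called. At 6 months 5 were lower and 13 higher by sign, with a median of 0.12, and 5 were higher at an unadjusted p under 0.05, beside 8.68% of all genes, with 0 called by edgeR. Rrp12, which exports pre-ribosomes, had 0.46 ± 0.16 (edgeR adjusted p 0.155) and Bysl, which acts in 40S assembly, had 0.39 ± 0.13 (0.143). Over time in the controls 17 of the 18 were lower by sign with a median of -0.25, and 12 were lower at an unadjusted p under 0.05, beside 6.38% of all genes. In HIRA KO 13 were lower over time, with a median of -0.08. Nop56, a core protein of box C/D snoRNPs, fell by 0.55 on the log2 scale in the controls (SE 0.10, edgeR adjusted p 0.0227) and was the single call. It was lost without replicate 1, 3 or 4 of the 3-week controls or replicate 3 or 4 of the 6-month controls (edgeR adjusted p up to 0.0774), and with FPKM values (limma adjusted p 0.0595). These changes over time use the same 6-month controls as the guide comparison, so the 2 sets of values are not independent.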

How the data were processed

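Poly(A) RNA of 20 livers was sequenced from directional libraries. The authors used STAR for alignment to mm10 and deposited a table of raw counts; HOMER is given for counting in the methods, and HTSeq and Cufflinks are listed in the submitters' processing notes. All libraries were fitted together in edgeR 4.0.16 (TMM, glmQLFTest, a mean per group, genes with at least 10 counts in total), with Benjamini-Hochberg adjustment over 22867 genes and a threshold of 0.05. Values ± SE are log2 fold changes. Alternatives were DESeq2 1.42.0, limma-voom, other scalings and filters, a replicate block, leaving out each library, and limma 3.58.1 on log2(FPKM + 1) of the FPKM values deposited by the authors. CPM is scaled by TMM, and log2 CPM uses a prior count of 2. The fit was tested on simulated data. R 4.3.3 and Python 3.11.15 were used. No replicates were identical (smallest chi-square per degree of freedom 15.1). The labels do not state that replicates are separate animals, so p-values measure the spread between these samples. Members and lists were chosen with earlier results of these data known. Named members are the 3 highest and 3 lowest per kilobase, the 3 with the largest spread, up to 5 called per comparison and direction or else the 1 with the smallest p, the one nearest 200 counts, and those of the role lists. Of each other list, up to 4 genes were named by smallest p. Coordinates are GRCm38 (GENCODE M21). The values of 1 member are not reported singly here.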

Additional observations from a re-analysis of the deposited data

Results flagged for a closer look

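For 14 members named by rank or change and the family's share of counts, 60 sets of 5 replicates were searched for a library far from the rest of its group, a search in which chance flags about 1 set in 20, and 2 were found. Rpl36 had 160.0 CPM in replicate 1 of the 3-week Rosa26 controls, against 109.5 to 121.0 CPM in the other 4, and that library had the highest family level of the series. Rpl7l1 had 47.8 CPM in replicate 3 of the 6-month Rosa26 controls, against 56.0 to 59.5 CPM in the other 4.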

How the results depend on the processing

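The median log2 fold change of the members stayed below 0 in each comparison under the alternatives that were run, except that the interaction was 0 with FPKM values. Without single libraries it ranged from -0.171 to -0.067 at 3 weeks, -0.245 to -0.138 at 6 months, -0.137 to -0.048 over time in controls, -0.182 to -0.096 over time in HIRA KO and -0.120 to -0.011 for the interaction. Members called at 6 months numbered 13 with DESeq2, 9 with DESeq2 without replicate 5 of HIRA KO (an alternative chosen after seeing the data), 1 with RLE size factors, 3 with a filter of 1 CPM in 5 libraries, and 0 to 2 without single libraries. Over time in HIRA KO they numbered 1 with DESeq2, with or without that library, and 0 to 1 without single libraries. With the replicate number as a block 1 member was called at 6 months (Rpl39, edgeR adjusted p 0.0394), and the block changed no other member's call. The numbers were not taken to pair the samples, since deviations of same-numbered libraries had r from -0.309 to 0.335 and 14 of 30 pairs were over 0.1. Members lower at an unadjusted p under 0.05 at 6 months numbered 14 with FPKM values and 21 with library totals alone, beside 1406 and 1243 of all 22867 genes. Over time in HIRA KO they numbered 12 and 9, beside 857 and 565 of all genes. At 3 weeks they numbered 1 with either, beside 789 and 776 of all genes. They numbered 4 with DESeq2 or the block there, beside 917 of 22795 and 1037 of 22867 genes. Over time in controls they numbered 10 with FPKM values and 3 with library totals, beside 1215 and 1145 of all genes. Of all genes DESeq2 called 225 at 3 weeks, 895 at 6 months, 506 over time in controls and 143 in HIRA KO, and edgeR 45, 299, 74 and 15. With only the libraries of each comparison edgeR called 149, 0, 147 and 9, and with a filter of 1 CPM in 5 libraries 90, 517, 179 and 16. Without the 10 genes with the most counts the family's share was 1.79, 1.724, 1.665 and 1.57% in controls and HIRA KO of 3 weeks and controls and HIRA KO of 6 months. Without single libraries these shares, over all genes, were 1.368 to 1.441, 1.296 to 1.365, 1.327 to 1.364 and 1.183 to 1.257%. Rps2 at 3 weeks ranged from -0.01422 (without replicate 4 of the controls) to 0.08491 without single libraries, and its sign also turned without replicate 1 of HIRA KO. Why these values moved was not tested. Each member had at least 11638 counts over the series, and depth limits mainly the markers of rare cells.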

Other observations

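Of 78 mitochondrial ribosomal protein genes, whose products translate the few mRNAs of mitochondrial DNA, 62 were lower by sign in HIRA KO at 3 weeks and 61 at 6 months, with medians of -0.08 and -0.06. Without the library with Y-linked counts 68 were lower at 6 months, with a median of -0.11. Mrps25 fell by 0.48 on the log2 scale at 6 months (SE 0.10, edgeR adjusted p 0.0237) and Mrps14 fell by 0.36 (SE 0.08, edgeR adjusted p 0.0377), and 0 of the 78 were called at 3 weeks. The call of Mrps25 was lost without replicate 4 of the 6-month controls (edgeR adjusted p 0.0828). That of Mrps14 was lost without replicate 1, 3 or 4 of those controls or replicate 2, 4 or 5 of HIRA KO (edgeR adjusted p up to 0.127). With the 6-month libraries alone both calls were lost (edgeR adjusted p 0.114 and 0.161), as they were with FPKM values (limma adjusted p 0.0505 and 0.438). That of Mrps14 was also lost with library totals alone (edgeR adjusted p 0.106) and with no filter beyond 1 count (0.0551).

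Of 78 nuclear genes for subunits of oxidative phosphorylation, 68 were lower by sign at 6 months with a median of -0.17, and 28 were lower at an unadjusted p under 0.05, beside 6.85% of all genes and 13.3% of the genes at least as abundant as the lowest ribosomal member. Without the library with Y-linked counts 73 were lower, with a median of -0.21, and 42 at that p. Atp5e, a small subunit of ATP synthase, fell by 0.65 (SE 0.15, edgeR adjusted p 0.0325) and Ndufb2, of complex I, fell by 0.52 (SE 0.13, edgeR adjusted p 0.044). The call of Atp5e was lost without replicate 1, 3 or 4 of the 6-month controls or replicate 2 or 4 of HIRA KO, with an edgeR adjusted p up to 0.107. That of Ndufb2 held in 11 of 20 fits without single libraries, with an edgeR adjusted p up to 0.149. It was lost without replicate 1, 2 or 4 of the 6-month controls or of 6-month HIRA KO, replicate 3 or 5 of the 3-week controls, or replicate 4 of 3-week HIRA KO. With the 6-month libraries alone the calls of Atp5e and Ndufb2 were lost (edgeR adjusted p 0.0898 and 0.104), as they were with FPKM values (limma adjusted p 0.0859 and 0.0913). That of Ndufb2 was also lost with library totals alone (edgeR adjusted p 0.0679) and with limma-voom (0.0544). Counts of mitochondrial genes made up a mean of 3.63, 3.99, 4.25 and 4.66% of counts in the 3-week controls, 3-week HIRA KO, 6-month controls and 6-month HIRA KO. Without the library with Y-linked counts, which had 6.23%, the last mean was 4.27%.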
